A study of Mus musculus with 4 samples.

Results

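The genes described here are those of the transforming growth factor beta (TGF-beta) family and its signal chain: the ligands, their receptors and the Smad proteins that carry the signal to the nucleus. They were chosen by symbol, as every gene whose name begins with Tgfb, Bmp, Gdf, Inhb, Acvr or Smad in the form used for these proteins, which gave 51 of the 22700 genes in the files. Of these, 35 reached a normalised read count of 20 in at least 1 library and the other 16 did not, so folds are given for 35 only. RNA came from marrow of male mice aged 12 weeks, grown in culture for 7 to 8 days. The 4 groups were db/db marrow in 20 ng/ml of GM-CSF, db/+ marrow in 20 ng/ml of GM-CSF, db/db marrow in 10 ng/ml of M-CSF and db/+ marrow in 10 ng/ml of M-CSF, each with 1 library. The labels give the strain as BKS.Cg-m+/+leprdb/J for the db/db mice, which are type 2 diabetic, and as BKS.Cg-m+/+leprdb+/J for their db/+ control littermates, so every animal carried the leptin receptor mutation on at least 1 chromosome. The sources used here do not say whether a library held marrow of 1 animal or of a pool. The question the design poses is how the diabetic state of the donor and the growth factor in the dish changed the macrophage transcriptome.

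TGF-beta family ligands are secreted dimers that bring together a pair of type I and a pair of type II receptor kinases at the cell surface. The type I receptor then phosphorylates a receptor-activated Smad: Smad2 and Smad3 for TGF-betas and activins, and Smad1, Smad5 and Smad9 for bone morphogenetic proteins (BMPs). These bind the common partner Smad4 and enter the nucleus, while Smad6 and Smad7 inhibit the chain. Macrophages make latent TGF-beta1 and activin A and respond to both, and mesenchymal cells of the marrow are known for a wide range of TGF-beta and BMP ligands and of the matrix proteins that store them.

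All low values were whole multiples of what 1 read is worth within a tolerance of 0.1, so the reads behind each value could be recovered. Summed over all genes and halved, they came to between 12801694 and 14311352 read pairs a library. The halving assumes that both reads of a pair were counted. Between 52.6% and 56.3% of recovered counts from 1 to 20 were even. Were both reads of every pair counted, all of them would be, so the numbers of pairs are not established. Levels below are normalised read counts, that is reads divided by the authors' size factor for the library, and a count of 3 read pairs corresponds to between 5.23 and 6.73 of them. With 1 library a group, a ratio between libraries has no replicate check, and its 95% interval covers counting error only. Lepr, the gene that carries the mutation, was at 60.3 in db/db GM-CSF, 49.4 in db/+ GM-CSF, 21.8 in db/db M-CSF and 6.7 in db/+ M-CSF cells, and a count per gene does not check a splice mutation. All 12 macrophage markers were detected in every library, with summed levels of 771686 in db/db GM-CSF, 771332 in db/+ GM-CSF, 630983 in db/db M-CSF and 671679 in db/+ M-CSF cells, most of it from Lyz2 in the GM-CSF libraries. Of the 12, 2 rose and 8 fell in GM-CSF (limma). The 19 markers of stromal cells, the fibroblast-like cells of the marrow, summed to 504.6 and 457.8 in the db/db and db/+ GM-CSF libraries, and to 90770 and 32985 in the db/db and db/+ M-CSF libraries. Col1a2, Acta2, Sparc and Postn led the M-CSF sums. In the GM-CSF libraries Twist1 was at 0 in both and Col3a1 at 0 in db/db and 1.1 in db/+ cells. Postn (148.5 and 131.2) and Tagln (124.8 and 124.5) were the highest there in db/db and db/+ cells. The summed stromal markers were thus low in both GM-CSF libraries and high in both M-CSF libraries. Lum, at 0 in both GM-CSF libraries, was at only 4.3 and 3.8 in db/db and db/+ M-CSF cells, and Thy1 at 10.4 and 21.9. Noncoding or antisense transcripts overlap Tgfb2, Tgfb3, Bmp5, Bmp8b, Acvrl1, Bmpr1a, Tgfbr3, Smad5 and Tgfbrap1 in the reference annotation. Those over Tgfbr3 and Smad5 lie on the same strand, so strand would not separate their reads. The others lie on the opposite strand, and without strand their reads cannot be told apart either.

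The promoters of 4 ligand genes are shown because these genes stand for the patterns that follow: Tgfb1 was measured at a like level in all 4 libraries, Tgfb2 and Inhbb almost only in the M-CSF libraries, and Inhba in all 4 but highest in the GM-CSF pair. Each sequence runs from 250 bases before to 50 bases after the gene's start on the gene's own strand, from RefSeq on build GRCm38.p6. Of the 51 genes, 36 had such a promoter in the RefSeq table. Capitals mark matches on either strand to the letters of a TATA box (TATAAA), a GC box (GGGCGG), an AP-1 site (TGANTCA) or a Smad-binding CAGA box (CAGACA).
Tgfb1, chr7:25686752-25687051, plus strand: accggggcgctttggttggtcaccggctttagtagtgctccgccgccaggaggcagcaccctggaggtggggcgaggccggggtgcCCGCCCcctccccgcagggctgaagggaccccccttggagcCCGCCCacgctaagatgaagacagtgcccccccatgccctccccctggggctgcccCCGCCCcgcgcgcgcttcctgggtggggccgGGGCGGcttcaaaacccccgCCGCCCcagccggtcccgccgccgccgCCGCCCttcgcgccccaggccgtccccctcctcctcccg
Tgfb2, chr1:186705940-186706239, minus strand: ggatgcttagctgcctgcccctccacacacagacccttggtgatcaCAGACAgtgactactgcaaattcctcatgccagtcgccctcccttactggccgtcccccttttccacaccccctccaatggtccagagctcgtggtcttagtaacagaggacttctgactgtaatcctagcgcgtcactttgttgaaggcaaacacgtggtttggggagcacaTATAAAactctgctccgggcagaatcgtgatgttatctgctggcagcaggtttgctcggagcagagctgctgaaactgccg
Inhba, chr13:16011601-16011900, plus strand: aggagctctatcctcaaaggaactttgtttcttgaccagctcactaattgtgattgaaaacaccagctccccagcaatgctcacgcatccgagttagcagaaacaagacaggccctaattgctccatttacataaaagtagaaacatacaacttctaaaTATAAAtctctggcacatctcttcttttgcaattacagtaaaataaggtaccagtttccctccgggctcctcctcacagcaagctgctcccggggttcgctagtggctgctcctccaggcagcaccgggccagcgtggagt
Inhbb, chr1:119422199-119422498, minus strand: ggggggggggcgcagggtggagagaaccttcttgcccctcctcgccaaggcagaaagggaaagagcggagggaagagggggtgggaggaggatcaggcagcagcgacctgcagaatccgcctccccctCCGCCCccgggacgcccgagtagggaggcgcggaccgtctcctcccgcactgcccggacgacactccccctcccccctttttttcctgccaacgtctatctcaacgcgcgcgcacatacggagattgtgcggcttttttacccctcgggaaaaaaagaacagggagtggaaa
The Tgfb1 promoter held 6 GC boxes and no TATA box, with 77% G and C. The Tgfb2 promoter held a TATA box 31 bases before the start and a CAGA box, with 54.3% G and C. The Inhba promoter held a TATA box 91 bases before the start, and the Inhbb promoter held a single GC box. Among all 32851 promoters of the table, 13.6% held the TATA box letters, 35.7% the GC box, 7.81% the AP-1 site and 21% the CAGA box, and no match to the AP-1 letters, which overlap none of the others in these windows, was found in the 4. A match of letters is a description of the window and says nothing of a factor bound there.

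Per kilobase of the longest coding transcript, the TGF-beta receptor kinase genes Tgfbr1 and Tgfbr2 had the highest levels of the 51 genes in every library. Tgfbr1 stood at 2575, 2523, 1821 and 1746 normalised reads per kilobase in db/db GM-CSF, db/+ GM-CSF, db/db M-CSF and db/+ M-CSF cells. Tgfbr2 followed with 1589, 1581, 1212 and 1142, and Tgfb1 came next with 719, 766, 739 and 877. All other ligand genes were below Tgfb1 on this scale in each library, the highest value among them being 452.5 for Tgfb3 in db/db M-CSF cells. The plot of levels by library shows 4 kinds of gene: those close to level across the libraries, those higher in GM-CSF such as Inhba and Bmpr1a, those detected in all 4 but lower in GM-CSF, and those near 0 in GM-CSF and well counted in M-CSF.

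**Figure D1:**
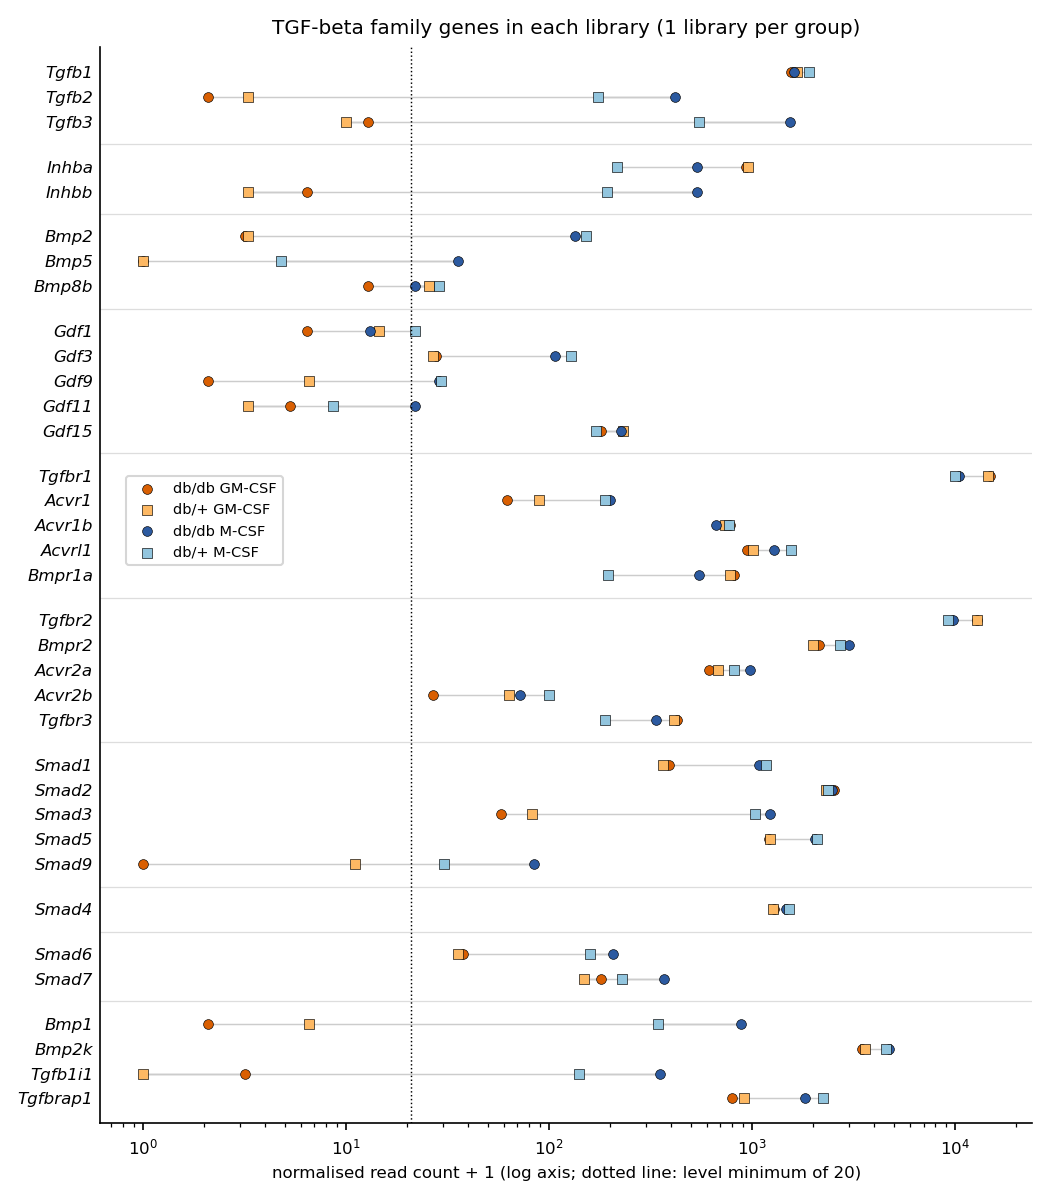
Normalised read count plus 1 (log axis) of the 35 genes that reached 20 in a library, ordered by role from ligands at the top through receptors and Smads to other products; each symbol is 1 library and the dotted line is the level minimum of 20. Tgfb2, Tgfb3, Inhbb, Bmp1 and Tgfb1i1 lie at or below 11.8 in the GM-CSF libraries and between 139.8 and 1530.9 in the M-CSF libraries, while Tgfbr1 and Tgfbr2 lie between 9244.3 and 14819.1 throughout.

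The TGF-beta ligands separated into Tgfb1 on one side and Tgfb2 and Tgfb3 on the other. Tgfb1, the main TGF-beta of blood cells, was at 1564.2 in db/db GM-CSF, 1665.5 in db/+ GM-CSF, 1606.8 in db/db M-CSF and 1908.0 in db/+ M-CSF cells. The db/+ M-CSF library was the highest and the other 3 lay close together. Its culture effect, the mean GM-CSF over M-CSF difference over both genotypes, was -0.12 ± 0.09 (log2 fold on log2(normalised count + 5), ± SE) and did not pass limma's test across all genes (adjusted p = 0.301). Between the M-CSF libraries the db/db over db/+ ratio was 0.842 (95% counting interval 0.769 to 0.922).

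Tgfb3, a TGF-beta made by mesenchymal cells among others, was at 11.8 and 9.0 in db/db and db/+ GM-CSF cells and at 1530.9 and 548.8 in db/db and db/+ M-CSF cells. The M-CSF pair lay far above the GM-CSF pair, and the culture effect of -5.91 ± 0.28 passed limma (adjusted p = 2.02e-10). Within M-CSF the db/db library was the higher, with a ratio to db/+ of 2.79 (2.44 to 3.19). Tgfb2, the isoform best known from embryonic and mesenchymal tissues, showed the same order at lower levels: 1.1 and 2.3 in db/db and db/+ GM-CSF cells, and 416.5 and 173.1 in db/db and db/+ M-CSF cells. Its culture effect was -5.36 ± 0.40 (limma, adjusted p = 3.24e-08), with only 1 to 2 reads in each GM-CSF library. The db/db over db/+ ratio in M-CSF was 2.41 (1.88 to 3.10). In bulk RNA, fewer cells of a type and less RNA per cell cannot be told apart.

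The summed stromal markers moved with these values: they were 2.75-fold higher in db/db than in db/+ M-CSF cells, with a median gene ratio of 2.62 over the 18 kept. On log2(normalised count + 5), 15 of the 18 were up by 2-fold or more and 0 down by as much, while the plain ratio of Thy1, named after its values were seen, was 0.475 (0.141 to 1.32). The summed macrophage markers had a ratio of 0.939 between the same libraries. The part of the stromal RNA in the ratios of Tgfb2, Tgfb3 and the other genes that follow was not tested.

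The activin genes differed from each other. Inhba encodes the subunit that forms activin A, a cytokine of activated macrophages and of many other cells, and was at 931.6 and 957.8 in db/db and db/+ GM-CSF cells and at 535.0 and 215.9 in db/db and db/+ M-CSF cells. The GM-CSF libraries were alike and highest, db/db M-CSF was intermediate and db/+ M-CSF lowest. Inhba rose in GM-CSF by 1.46 ± 0.22 (limma, adjusted p = 4.25e-05), with a ratio over M-CSF of 1.74 (1.501 to 2.022) in db/db and 4.44 (3.58 to 5.48) in db/+ marrow. Without a variance trend its culture effect did not pass (limma, adjusted p = 0.0661). Within M-CSF its db/db over db/+ ratio was 2.48 (1.98 to 3.09), and within GM-CSF it was 0.973 (0.849 to 1.11).

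Inhbb, the subunit of activin B, was at 5.4 and 2.3 in db/db and db/+ GM-CSF cells, against 537.6 and 192.1 in db/db and db/+ M-CSF cells. It fell in GM-CSF (culture effect -5.23 ± 0.34; limma, adjusted p = 7.12e-09), the opposite direction from Inhba. Its db/db over db/+ ratio in M-CSF, 2.80 (2.23 to 3.54), was close to those of Tgfb3 and Inhba. Inhbc and Inhbe, subunits known mainly from liver, stayed under 20 in every library, with 5.7 as their highest value.

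BMP ligands were scarce in all 4 libraries, where 3 of 10 reached 20. Bmp2, a bone-forming ligand, was at 2.2 and 2.3 in db/db and db/+ GM-CSF cells and at 133.3 and 151.2 in db/db and db/+ M-CSF cells. Unlike Tgfb2 and Tgfb3 it had a db/db over db/+ ratio in M-CSF whose interval included 1 (0.882, 0.636 to 1.22), beside a culture effect of -4.34 ± 0.39 (limma, adjusted p = 2.20e-07). Bmp5 was at 0 in both GM-CSF libraries, at 34.8 in db/db M-CSF and at 3.8 in db/+ M-CSF cells, a ratio of 9.16 in M-CSF with an interval of 2.23 to 80.8 that reflects the few reads in db/+. It passed limma for culture (adjusted p = 0.0288), but not without a variance trend (limma, adjusted p = 0.0969). With the library at 0 set to 3 read pairs, its GM-CSF level was 5.39-fold lower than in M-CSF in db/db marrow. The interval of the GM-CSF over M-CSF ratio ran from 0 to 0.25 in db/db and from 0 to 6.28 in db/+ marrow. Bmp8b, known from brown fat and germ cells, was at 11.8, 24.7, 20.9 and 27.6 in db/db GM-CSF, db/+ GM-CSF, db/db M-CSF and db/+ M-CSF cells, and all of its intervals included 1. Reads of Bmp8b can be shared with its close copy Bmp8a, which stayed at or below 8.6.

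Among the growth and differentiation factors (GDFs), 5 of 10 reached 20. Gdf15, a cytokine released under cell stress, had the highest level of them per kilobase in each library, with normalised read counts of 179.7 and 229.9 in db/db and db/+ GM-CSF cells and of 225.7 and 169.3 in db/db and db/+ M-CSF cells. The genotype ratio of Gdf15 was 0.782 (0.579 to 1.05) in GM-CSF and 1.33 (1.01 to 1.77) in M-CSF, so the libraries overlapped in order, and the culture effect of 0.05 ± 0.21 did not pass limma (adjusted p = 0.841). Gdf3, a relative of Nodal that signals in the early embryo and is also made in fat tissue macrophages, was at 26.9 and 25.8 in db/db and db/+ GM-CSF cells and at 106.3 and 127.5 in db/db and db/+ M-CSF cells. Gdf3 fell in GM-CSF (culture effect -1.95 ± 0.30; limma, adjusted p = 6.82e-05).

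The other GDF genes were near the level minimum. Gdf9, best known from the oocyte, was at 1.1 and 5.6 in db/db and db/+ GM-CSF cells and at 27.9 and 28.5 in db/db and db/+ M-CSF cells, and passed limma for culture (-2.05 ± 0.52, adjusted p = 0.00371). Gdf11, the nearest relative of myostatin, was at 4.3 and 2.3 in db/db and db/+ GM-CSF cells and at 20.9 and 7.6 in db/db and db/+ M-CSF cells, and did not pass (adjusted p = 0.109). Its M-CSF ratio of 2.75 had an interval of 0.833 to 11.7. Gdf1, which shares a transcript with Cers1 and overlaps Upf1 on the other strand, was at 5.4, 13.5, 12.2 and 20.9 in db/db GM-CSF, db/+ GM-CSF, db/db M-CSF and db/+ M-CSF cells, and its reads cannot be told from theirs.

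The 16 genes under 20 in every library were Inhbc, Inhbe, Bmp3, Bmp4, Bmp6, Bmp7, Bmp8a, Bmp10, Bmp15, Gdf2, Gdf5, Gdf6, Gdf7, Gdf10, Acvr1c and Bmpr1b. Their highest value was 15.7, for Bmp4 in db/db M-CSF cells. In db/db GM-CSF cells 11 of them were at 0 and in db/+ GM-CSF cells 12, against 6 in db/db M-CSF and 1 in db/+ M-CSF cells. Bmp10 was at 0 in all 4 libraries, and the other 15 had at least 1 read in db/+ M-CSF cells.

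The type I receptors held the most abundant gene of the family. Tgfbr1, the type I kinase for TGF-beta, was at 14819.1 and 14524.4 in db/db and db/+ GM-CSF cells and at 10480.5 and 10050.9 in db/db and db/+ M-CSF cells. Both GM-CSF libraries were above both M-CSF libraries, and Tgfbr1 rose in GM-CSF by 0.52 ± 0.09 (limma, adjusted p = 0.000137). Bmpr1a, a type I receptor for BMP2 and BMP4, was at 812.2 and 779.5 in db/db and db/+ GM-CSF cells and at 544.6 and 194.0 in db/db and db/+ M-CSF cells, with the GM-CSF pair highest and db/+ M-CSF lowest, as for Inhba. It rose in GM-CSF by 1.28 ± 0.23 (limma, adjusted p = 0.000239), but did not pass without a variance trend (limma, adjusted p = 0.0939). The db/db over db/+ ratio of Bmpr1a was 2.81 (2.24 to 3.55) in M-CSF and 1.04 (0.898 to 1.21) in GM-CSF.

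Acvrl1, a type I receptor best known from endothelium, was at 947.8 and 1012.8 in db/db and db/+ GM-CSF cells and at 1279.1 and 1552.3 in db/db and db/+ M-CSF cells. It fell in GM-CSF (culture effect -0.52 ± 0.10; limma, adjusted p = 0.000456), and its db/db over db/+ ratio in M-CSF was 0.824 (0.745 to 0.912). Acvr1, which takes BMP and activin signals, was at 61.3 and 88.6 in db/db and db/+ GM-CSF cells and at 198.7 and 187.4 in db/db and db/+ M-CSF cells, and fell in GM-CSF (-1.33 ± 0.24; limma, adjusted p = 0.000263). Acvr1b, the type I receptor for activins, stayed between 664.0 and 774.6 in the 4 libraries and did not pass (adjusted p = 0.58).

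Among the type II receptors, Tgfbr2, the TGF-beta-binding kinase, was at 12855.8 and 12791.6 in db/db and db/+ GM-CSF cells and at 9803.5 and 9244.3 in db/db and db/+ M-CSF cells. It rose in GM-CSF by 0.43 ± 0.09 (limma, adjusted p = 0.000625), as Tgfbr1 did, while the type II receptors for BMPs and activins moved the other way. Bmpr2 was at 2147.3 and 1989.7 in db/db and db/+ GM-CSF cells and at 3006.1 and 2702.2 in db/db and db/+ M-CSF cells, and fell in GM-CSF (-0.46 ± 0.09; limma, adjusted p = 0.000323). Acvr2a, whose gene overlaps Orc4 on the other strand, was at 614.3 and 680.8 in db/db and db/+ GM-CSF cells and at 982.0 and 816.1 in db/db and db/+ M-CSF cells, and fell in GM-CSF (-0.47 ± 0.12; limma, adjusted p = 0.00504). The fall of Acvr2a did not pass without a variance trend (limma, adjusted p = 0.1) or with DESeq2 (adjusted p = 0.052).

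Acvr2b, the second activin type II receptor, was the only kept receptor gene with a genotype ratio below 0.5 in GM-CSF. It was at 25.8 and 62.8 in db/db and db/+ GM-CSF cells, with a ratio between the genotypes of 0.411 (0.190 to 0.835). In db/db and db/+ M-CSF cells it was at 71.4 and 98.9, where the interval of the ratio (0.722, 0.468 to 1.11) included 1. Acvr2b fell in GM-CSF by limma (-0.96 ± 0.31, adjusted p = 0.0164), but did not pass with DESeq2 (adjusted p = 0.211). Tgfbr3, or betaglycan, which presents TGF-beta2 and binds inhibin, was at 424.9 and 413.9 in db/db and db/+ GM-CSF cells and at 337.2 and 187.4 in db/db and db/+ M-CSF cells. It rose in GM-CSF by 0.73 ± 0.19 (limma, adjusted p = 0.00394), with the GM-CSF pair highest and db/+ M-CSF lowest, as for Inhba and Bmpr1a.

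Scaling bears on the size of the receptor differences. With reads scaled by the library total in place of the authors' size factors, the median log2 fold of all 13642 genes moved by -0.35 for GM-CSF over M-CSF in db/db and by -0.32 in db/+ marrow. The log2 folds of Tgfbr1 were then 0.14 in db/db and 0.21 in db/+ marrow and those of Tgfbr2 0.03 and 0.14, and for Tgfbr3 in db/db marrow the sign turned, to -0.02. Inhba (0.44 and 1.80) and Bmpr1a (0.22 and 1.66) remained positive in db/db and db/+ marrow under that scaling.

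The Smads of the TGF-beta and activin branch were unlike each other. Smad2 was at 2542.1 and 2322.8 in db/db and db/+ GM-CSF cells and at 2477.2 and 2356.0 in db/db and db/+ M-CSF cells, and its culture effect of 0.01 ± 0.09 did not pass limma (adjusted p = 0.942). Smad3 was at 57.0 and 81.9 in db/db and db/+ GM-CSF cells and at 1219.9 and 1030.1 in db/db and db/+ M-CSF cells. Smad3 fell in GM-CSF (culture effect -3.94 ± 0.19; limma, adjusted p = 2.02e-10), with a GM-CSF over M-CSF ratio of 0.0467 (0.0312 to 0.0699) in db/db and 0.0795 (0.0561 to 0.112) in db/+ marrow. Per kilobase, Smad3 was thus at 11.2 and 16.1 against 314 and 287 for Smad2 in db/db and db/+ GM-CSF cells, and at 240 and 202 against 306 and 291 in db/db and db/+ M-CSF cells. Its db/db over db/+ ratio in M-CSF was 1.18 (1.06 to 1.33), well below the 2.79 of Tgfb3.

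The Smads of the BMP branch fell in GM-CSF. Smad1 was at 387.3 and 364.5 in db/db and db/+ GM-CSF cells and at 1086.6 and 1174.7 in db/db and db/+ M-CSF cells, a culture effect of -1.58 ± 0.12 (limma, adjusted p = 3.63e-08). Smad5 was at 1208.1 and 1227.0 in db/db and db/+ GM-CSF cells and at 2039.8 and 2086.8 in db/db and db/+ M-CSF cells, a culture effect of -0.76 ± 0.09 (limma, adjusted p = 5.24e-06). For both, every genotype ratio had an interval that included 1. Smad9, the third BMP-activated Smad, was at 0 and 10.1 in db/db and db/+ GM-CSF cells and at 83.6 and 29.5 in db/db and db/+ M-CSF cells. It passed limma for culture (-2.67 ± 0.60, adjusted p = 0.0016), but not without a variance trend (limma, adjusted p = 0.0906). The effect was -1.87 with the db/db GM-CSF library left out and -3.35 with the db/+ M-CSF library left out. The M-CSF genotype ratio of Smad9 was 2.83 (1.53 to 5.19).

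Smad4, the partner of all the others, was at 1279.1 and 1269.6 in db/db and db/+ GM-CSF cells and at 1471.7 and 1516.1 in db/db and db/+ M-CSF cells. Its culture effect of -0.23 ± 0.09 lay just outside the threshold (limma, adjusted p = 0.0517), and passed with edgeR's quasi-likelihood test (adjusted p = 0.0238). The inhibitory Smads fell in GM-CSF. Smad6, which blocks the BMP branch, was at 36.6 and 34.8 in db/db and db/+ GM-CSF cells and at 206.5 and 157.9 in db/db and db/+ M-CSF cells, a culture effect of -2.19 ± 0.27 (limma, adjusted p = 5.93e-06). Smad7, which blocks both branches, was at 179.7 and 148.1 in db/db and db/+ GM-CSF cells and at 366.8 and 229.2 in db/db and db/+ M-CSF cells, a culture effect of -0.81 ± 0.19 (limma, adjusted p = 0.00186). The M-CSF genotype ratio of Smad7 was 1.60 (1.27 to 2.01).

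The symbol rule also took in 4 genes whose products are neither ligands, receptors nor Smads. Bmp1, a metalloproteinase that trims procollagen and frees BMPs from an antagonist, was at 1.1 and 5.6 in db/db and db/+ GM-CSF cells and at 887.0 and 345.3 in db/db and db/+ M-CSF cells. Tgfb1i1, the focal adhesion protein Hic-5 of fibroblasts and smooth muscle, was at 2.2 and 0 in db/db and db/+ GM-CSF cells and at 351.1 and 139.8 in db/db and db/+ M-CSF cells. Both followed the order of Tgfb2 and Tgfb3, with M-CSF genotype ratios of 2.57 (2.16 to 3.05) for Bmp1 and 2.51 (1.91 to 3.31) for Tgfb1i1. Tgfbrap1, a vesicle-tethering protein first found bound to TGF-beta receptors, was at 792.9 and 908.5 in db/db and db/+ GM-CSF cells and at 1815.9 and 2231.4 in db/db and db/+ M-CSF cells, a culture effect of -1.24 ± 0.10 (limma, adjusted p = 4.43e-08). Bmp2k, a kinase induced by BMP2 in bone-forming cells whose gene overlaps Paqr3, lay between 3502.8 and 4721.8 and fell in GM-CSF (-0.38 ± 0.08; limma, adjusted p = 0.00122).

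Between the M-CSF libraries, 10 of the 35 genes had a db/db level 2-fold or more above that of db/+ cells on log2(normalised count + 5), against 5.05% of all 13642 genes, and 0 of 35 lay 2-fold or more below, against 0.777%. Bmp5 and Gdf11 passed the minimum of 20 through db/db M-CSF cells alone, and at a minimum of 50 the count was 8. The 10 were Tgfb2, Tgfb3, Inhba, Inhbb, Bmp5, Gdf11, Bmpr1a, Smad9, Bmp1 and Tgfb1i1, with ratios from 2.41 to 9.16 and a median of 2.77. The median log2 fold of the 35 was 0.08, beside 0.02 for all genes. The counting interval lay above 1 for 17 of the 35 (19.7% of all genes) and below 1 for 4 (14.3% of all genes), these being Tgfb1, Acvr1b, Acvrl1 and Tgfbrap1. Among kept genes by role, the 10 held 2 of 3 TGF-beta ligands, 2 of 2 activin subunits, 1 of 3 BMP ligands and 1 of 5 GDF ligands. They also held 1 of 5 type I receptors, 0 of 5 type II and III receptors, 1 of 5 receptor-activated Smads and 2 of 4 other products. The ratios of the TGF-beta receptor kinase genes were 1.043 (1.005 to 1.082) for Tgfbr1 and 1.06 (1.02 to 1.10) for Tgfbr2, beside 1.799 (1.402 to 2.311) for the co-receptor Tgfbr3.

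The genotype effect over both cultures passed limma for 0 of the 35 genes, against 0.00733% of all genes, and 9 had an unadjusted p under 0.05 (4.42% of all genes). With edgeR's quasi-likelihood test on the recovered reads 2 passed (0.755% of all genes), Tgfb3 (adjusted p = 0.00172) and Inhbb (adjusted p = 0.0158), and with DESeq2 0 passed (0.0147% of all genes). No interaction of genotype and culture could be tested with 1 library a group.

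**Figure D2:**
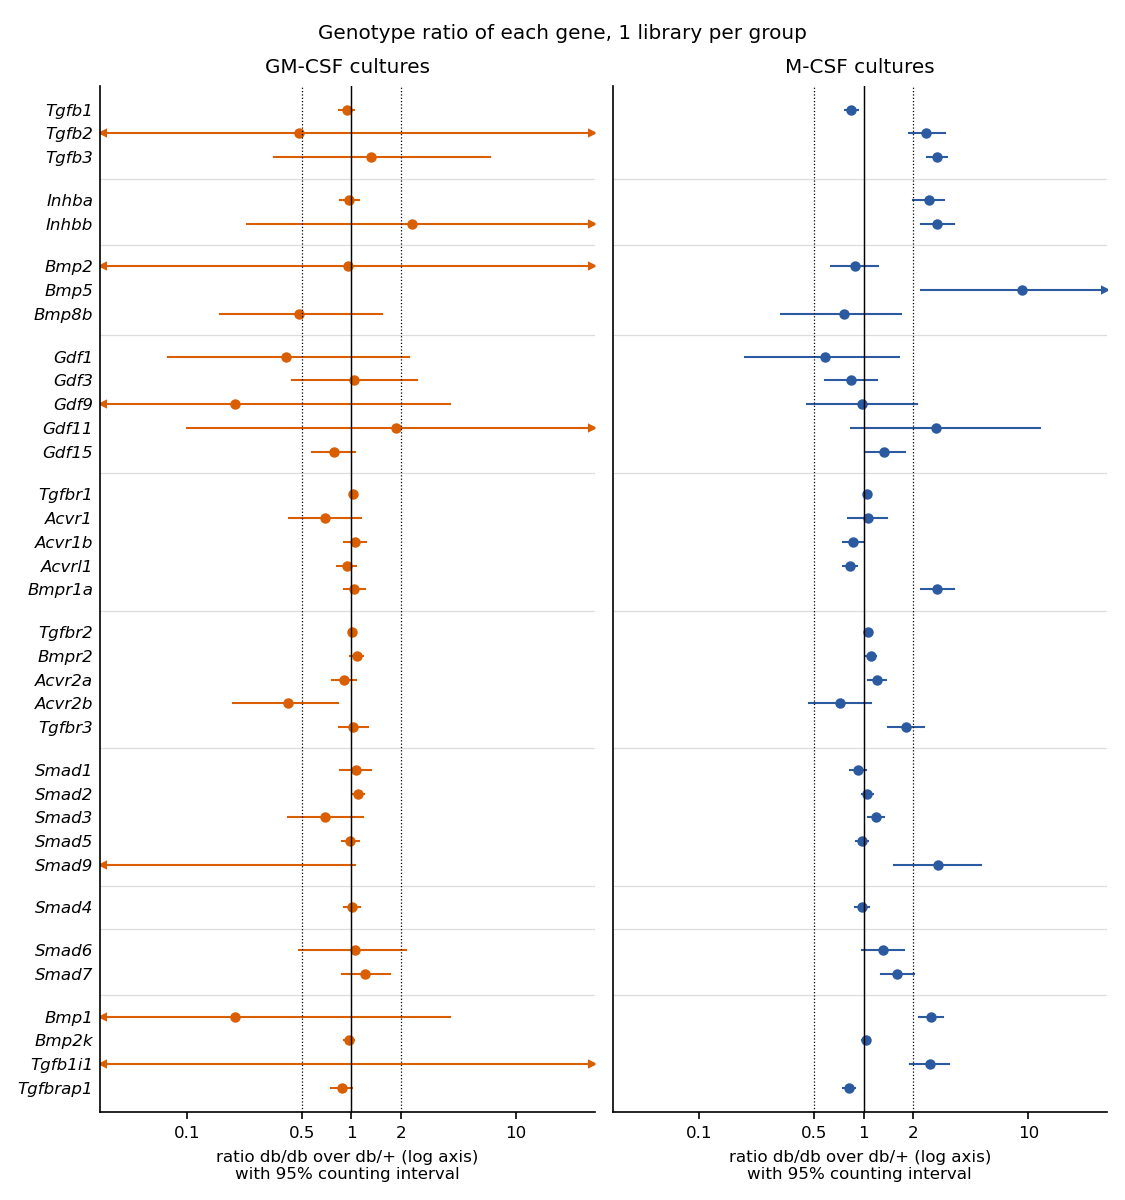
Ratio of db/db over db/+ (log axis) for the 35 genes in GM-CSF cultures on the left and M-CSF cultures on the right, with points for the ratio of the 2 libraries, bars for the 95% counting interval (arrows where it runs off the axis) and dotted lines at 0.5 and 2; a gene at 0 in a library has a bar or no mark. In M-CSF the points of Tgfb2, Tgfb3, Inhba, Inhbb, Bmpr1a, Bmp1 and Tgfb1i1 lie between 2.41 and 2.81, and in GM-CSF the well-counted genes lie close to 1.

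Between the GM-CSF libraries, 0 of the 35 genes had a db/db level 2-fold or more above that of db/+ cells (0.586% of all genes) and 2 had a level 2-fold or more below it (0.476% of all genes). These were Acvr2b and Smad9, whose level of 0 in db/db rests on few reads in db/+ and whose interval reached 1.05. The counting interval excluded 1 for 2 genes, against 6.70% of all genes: Acvr2b, and Smad2 with a ratio of 1.09 (1.01 to 1.19). With a pseudocount of 1 in place of 5 the 2 genes became 7, and with 20 they became 0. The median log2 fold of the 35 was -0.02, beside 0.01 for all genes. The M-CSF difference in Tgfb3 or Inhbb could not be looked for in GM-CSF cells, where these genes had few reads and the intervals of their genotype ratios ran from 0.341 to 6.93 and from 0.231 to 151.

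By culture, 27 of the 35 genes passed limma, against 57.1% of all genes: 5 rose in GM-CSF (29.8% of all genes) and 22 fell (27.3% of all genes). The 5 that rose were Inhba and the receptor genes Bmpr1a, Tgfbr1, Tgfbr2 and Tgfbr3, of which only Tgfbr1 also passed without a variance trend. The 22 that fell were spread over the roles, with 2 of 3 TGF-beta ligands, 4 of 5 receptor-activated Smads, both inhibitory Smads and 3 of 5 type II and III receptors. The 8 that did not pass were Tgfb1, Bmp8b, Gdf1, Gdf11, Gdf15, Acvr1b, Smad2 and Smad4. Markers of other cells moved with culture too: all 18 kept stromal and all 9 kept neutrophil markers fell in GM-CSF (limma), and of 10 dendritic cell markers 7 rose and 1 fell. Of the 12 macrophage markers 2 rose and 8 fell, 4 of 5 kept B cell and 4 of 5 kept megakaryocyte markers fell, and of 4 kept endothelial markers 3 rose and 1 fell. Their part in the culture effects was not tested. In this model the error of a gene comes from how far its GM-CSF over M-CSF folds differ between the genotypes, with 1 residual degree of freedom and a variance trend over all genes.

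Without the db/db GM-CSF library the number passing was 16 (36.7% of all genes), and it was 20 without db/+ GM-CSF (36.8%), 23 without db/db M-CSF (52.6%) and 24 without db/+ M-CSF (51.5%), in a model of culture alone that assumes the lone library to vary like the other group. With no level minimum, 0 passed over 22700 genes. The 14 genes that passed with each library left out were Tgfb2, Tgfb3, Inhbb, Bmp2, Gdf3, Tgfbr1, Tgfbr2, Smad1, Smad3, Smad5, Smad6, Bmp1, Tgfb1i1 and Tgfbrap1. By 2-fold differences in each genotype, 0 of the 35 genes were higher in GM-CSF (11.3% of all genes) and 18 lower (15.8%) in db/db marrow, while 3 were higher (12.0%) and 14 lower (15.7%) in db/+ marrow. The 3 were Inhba, Bmpr1a and Tgfbr3. Scaled by library total, 0 were higher and 20 lower in db/db marrow and 2 were higher and 15 lower in db/+ marrow, and the share of higher genes among all those 2-fold apart was 27.5% in place of 41.8% in db/db and 29.2% in place of 43.3% in db/+ marrow.

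**Figure D3:**
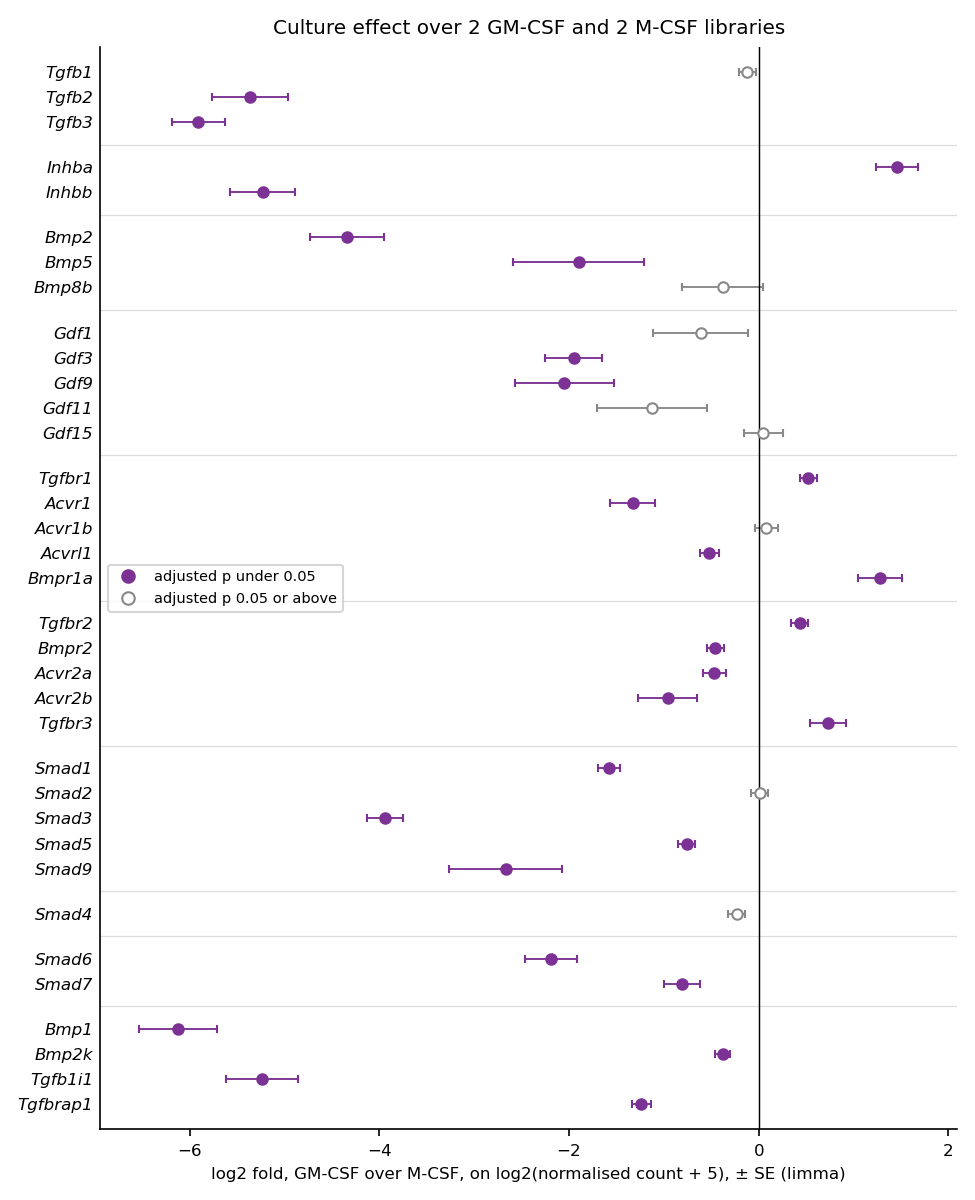
Culture effect of each of the 35 genes, as the limma log2 fold of GM-CSF over M-CSF on log2(normalised count + 5) with its SE, over 2 GM-CSF and 2 M-CSF libraries; filled points passed at an adjusted p under 0.05 over all 13642 genes. Bmp1, Tgfb3, Tgfb2, Tgfb1i1 and Inhbb lie lowest, from -6.12 to -5.23, and Inhba and Bmpr1a highest, at 1.46 and 1.28.

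The wider pathway was read from lists of genes that store, block or relay these ligands. Over all genes, 5.05% were 2-fold or more above db/+ in db/db M-CSF cells and 0.777% below, and by culture 29.8% rose and 27.3% fell in GM-CSF (limma). Of 11 kept genes for latency and activation, 5 were 2-fold or more above db/+ in db/db M-CSF cells and 0 below, and by culture 2 rose and 7 fell in GM-CSF (limma). Among the binding proteins of latent TGF-beta, Ltbp1 was at 6.5 and 2.3 in db/db and db/+ GM-CSF cells and at 1209.4 and 547.9 in db/db and db/+ M-CSF cells. Fibrillin Fbn1, to which they attach, was at 1.1 in both GM-CSF libraries and at 1484.8 and 593.5 in db/db and db/+ M-CSF cells. Ltbp2 had 5.4 and 3.4 in db/db and db/+ GM-CSF cells and 440.0 and 173.1 in db/db and db/+ M-CSF cells. Ltbp4 was at 0 in both GM-CSF libraries and at 25.3 and 15.2 in db/db and db/+ M-CSF cells. Ltbp3, which was named after its values were seen, was at 251.7 and 271.4 in db/db and db/+ GM-CSF cells and at 217.0 and 296.8 in db/db and db/+ M-CSF cells, did not pass for culture (0.04 ± 0.17; limma, adjusted p = 0.854), and had a db/db over db/+ ratio in M-CSF of 0.731 (0.576 to 0.935). Thbs1, thrombospondin, which activates latent TGF-beta, was high in all, at 4635.6 and 5114.4 in db/db and db/+ GM-CSF cells and at 22987.0 and 10664.4 in db/db and db/+ M-CSF cells.

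Of 12 kept extracellular antagonists, 5 were 2-fold or more above db/+ in db/db M-CSF cells and 0 below, and by culture 2 rose and 9 fell in GM-CSF (limma), where 5.05%, 0.777%, 29.8% and 27.3% of all genes did. The proteoglycan Bgn, biglycan, which binds TGF-beta, was at 6.5 and 4.5 in db/db and db/+ GM-CSF cells and at 7588.5 and 2824.9 in db/db and db/+ M-CSF cells. The activin trap Fst, follistatin, was at 18.3 and 13.5 in db/db and db/+ GM-CSF cells and at 93.2 and 35.2 in db/db and db/+ M-CSF cells, a genotype ratio in M-CSF of 2.65 (1.52 to 4.65), beside 2.48 for Inhba and 2.80 for Inhbb. Its relative Fstl3 (2.12, 1.44 to 3.11), decorin Dcn (2.55, 1.54 to 4.46) and the BMP antagonist Grem1 (2.06, 1.60 to 2.69) had like ratios between the M-CSF libraries. Nbl1, a further BMP antagonist, had 1.85 (1.42 to 2.44). Biglycan and decorin are products of stromal cells, and the ratio of the summed stromal markers was 2.75; its part in these ratios was not tested.

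All 4 kept co-receptor genes fell in GM-CSF (limma), of 8 listed, where 27.3% of all genes fell. Neo1, a receptor for repulsive guidance molecules that bears on BMP signalling, was at 6.5 and 4.5 in db/db and db/+ GM-CSF cells and at 715.4 and 315.8 in db/db and db/+ M-CSF cells. Eng, endoglin, a TGF-beta co-receptor, was at 242.1 and 272.6 in db/db and db/+ GM-CSF cells and at 894.0 and 1248.9 in db/db and db/+ M-CSF cells. Its db/db over db/+ ratio in M-CSF was 0.716 (0.636 to 0.804), in the direction of Acvrl1, with which it acts in endothelium, and opposite to that of Neo1 (2.27, 1.89 to 2.73). The pseudoreceptor Bambi had a ratio of 1.65 (1.20 to 2.25) and the BMP co-receptor Rgmb 0.898 (0.763 to 1.06).

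Of 17 regulators of Smads inside the cell, 0 were 2-fold or more above db/+ in db/db M-CSF cells (5.05% of all genes) and 0 below (0.777%). By culture 4 rose (29.8% of all genes) and 3 fell (27.3%) in GM-CSF (limma), with a median effect of -0.05. Smurf1, a ubiquitin ligase for BMP Smads, was at 2569.0 and 2597.6 in db/db and db/+ GM-CSF cells and at 1133.6 and 1105.2 in db/db and db/+ M-CSF cells, a rise of 1.20 ± 0.09 (adjusted p = 3.17e-08). Smurf2, the related ligase, was at 549.7 and 649.4 in db/db and db/+ GM-CSF cells and at 1395.9 and 1071.9 in db/db and db/+ M-CSF cells, a culture effect of -1.03 ± 0.14 (limma, adjusted p = 1.30e-05). Strap, which holds Smad7 at the receptor, rose by 0.39 ± 0.09 (limma, adjusted p = 0.00227), a size close to the shift of all genes under scaling by library total, while the Smad anchor Zfyve9 fell in GM-CSF (-0.98 ± 0.29; limma, adjusted p = 0.01) and the repressor Tgif2 fell (-0.92 ± 0.25; limma, adjusted p = 0.00517). Tab1, an adaptor of the Smad-independent branch, did not pass for culture (adjusted p = 0.612), and its db/db over db/+ ratio in M-CSF was 0.742 (0.640 to 0.861).

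Of 15 kept target genes of TGF-beta or BMP, 4 were 2-fold or more above db/+ in db/db M-CSF cells and 0 below, and by culture 2 rose and 10 fell in GM-CSF (limma), where 5.05%, 0.777%, 29.8% and 27.3% of all genes did. Ctgf, a matrix-associated growth factor, was at 4.3 and 5.6 in db/db and db/+ GM-CSF cells and at 13537.2 and 5093.4 in db/db and db/+ M-CSF cells. The cell cycle inhibitor Cdkn2b was at 53.8 and 33.7 in db/db and db/+ GM-CSF cells and at 219.6 and 98.9 in db/db and db/+ M-CSF cells, and Id4 was at 0 in both GM-CSF libraries and at 49.7 and 10.5 in db/db and db/+ M-CSF cells. Many cell types of the marrow use these targets for other signals too, and stromal cells express Ctgf strongly.

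Other targets of the list, such as Klf10, Cdkn1a and Id2, had M-CSF genotype ratios near 1. The BMP target Id3 was among them, unlike Ctgf, Cdkn2b and Id4. It was at 0 and 2.3 in db/db and db/+ GM-CSF cells and at 1725.3 and 1564.6 in db/db and db/+ M-CSF cells, a culture effect of -8.09 ± 0.27 (limma, adjusted p = 3.40e-12) with an M-CSF genotype ratio of only 1.103 (1.004 to 1.210). In this it was like Bmp2 (0.882), Smad1 (0.925) and Smad3 (1.18), which fell in GM-CSF with M-CSF genotype ratios near 1, and unlike Ctgf (2.66, 2.54 to 2.78). Bhlhe40 went the other way, at 7859.8 and 8254.8 in db/db and db/+ GM-CSF cells and at 228.3 and 179.8 in db/db and db/+ M-CSF cells, a rise of 5.28 ± 0.11 (limma, adjusted p = 2.75e-14).

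**Figure D4:**
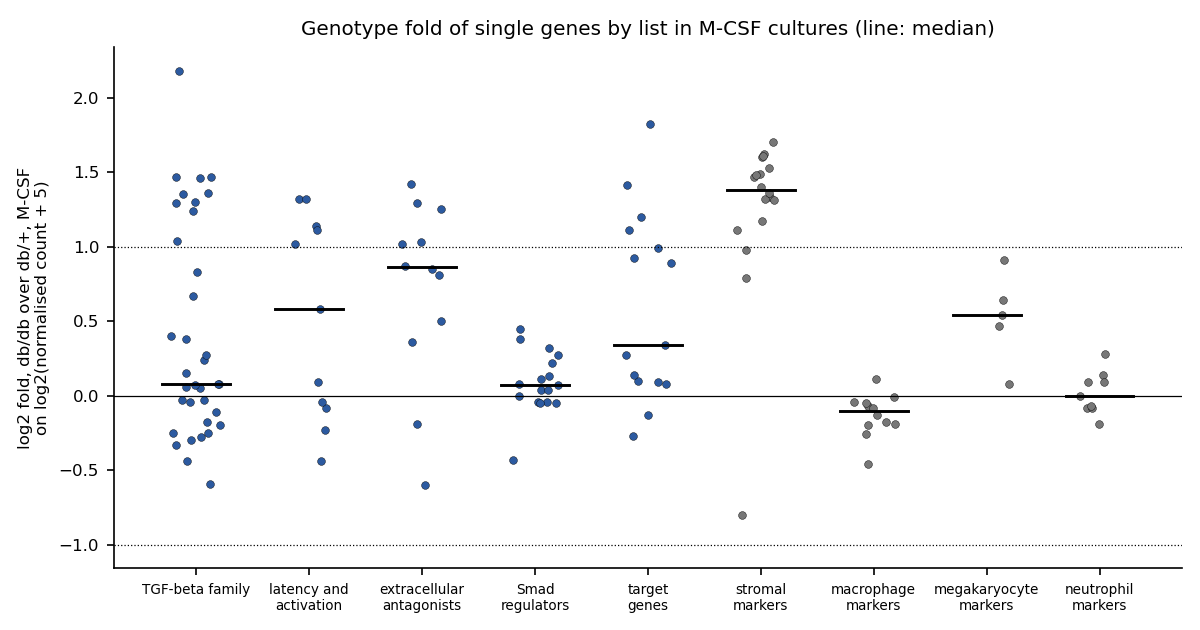
Log2 fold of db/db over db/+ in M-CSF cultures for single genes, on log2(normalised count + 5), grouped by list with a line at each median and dotted lines at 2-fold; blue points are the TGF-beta family and its pathway lists and grey points are cell type markers. The medians are 0.08 for the family, 0.58 for latency and activation, 0.86 for antagonists, 0.07 for Smad regulators, 0.34 for target genes, 1.38 for stromal and -0.10 for macrophage markers.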

How the data were processed

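Ribosomal RNA was removed from total RNA before sequencing of read pairs, per the labels' protocols. The submitters' processing notes name TopHat 1.2.0, edgeR and the builds mm8 and mm9 without a role, and no source used here gives the counting tool, the annotation or the use of strand, so reads of overlapping genes cannot be told apart. The deposited values are a normalised signal per gene, by their file names reads divided by a TMM size factor, rounded to 1 decimal by the authors. The design allowed for counts or a normalised unit, and as the unit is normalised, limma on log values was used. Steps of 1 read were 1.08, 1.12, 0.871 and 0.951 in db/db GM-CSF, db/+ GM-CSF, db/db M-CSF and db/+ M-CSF cells, and 0 columns of samples were left unused. Genes with 20 or more in a library were kept (13642). limma 3.58.1 fitted culture and genotype on log2(value + 5) with a variance trend (1 residual degree of freedom, prior 12.87), with Benjamini-Hochberg adjustment over all genes, two-sided, at 0.05. Ratios have exact conditional binomial 95% intervals on read pairs, taken as recovered reads halved and rounded up. Alternatives were edgeR 4.0.16 and DESeq2 1.42.0 on recovered reads, other pseudocounts, level minimums, scalings and models, and each library left out. The fits were also run on simulated data with known changes in well-counted genes. That run checked the sign and size of folds and not the calls made here. Scaling by library total was used for folds and not for the limma fits. The genes and lists were chosen with earlier results of these data known. Every gene of the symbol rule is accounted for; from each list up to 4 genes with the largest M-CSF genotype fold and up to 4 with the largest culture fold are named, except some that are not reported here. Promoters come from RefSeq (GRCm38.p6) and lengths from GENCODE, a build other than the authors'.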

Additional observations from a re-analysis of the deposited data

How the results depend on the processing

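The culture fit included genotype, so GM-CSF was set against M-CSF within each genotype. No pairing of replicates was possible beyond that, because each group has 1 library and the labels give no replicate numbers. The 4 libraries limit every genotype ratio to a comparison of libraries. The count of 2 genes 2-fold apart between the GM-CSF genotypes was 7 with a pseudocount of 1, 0 with 20, and 1 when a value of 0 was put at 3 read pairs, and over all genes 145 was 560 with a pseudocount of 1 and 1 with 20. The 27 genes that passed limma for culture became 0 with no level minimum, where no gene of 22700 passed (smallest adjusted p 0.06277), and 16 to 24 with each library left out, a setting added after the data were seen. Of the 27, 13 passed in every alternative but that without a level minimum. DESeq2 passed 23, and a fit without a variance trend passed 21, with 1 of them higher. Over all 13642 genes, 5375 passed with DESeq2 and 5805 without a variance trend, against 7787 in the main fit. Scaling by library total was applied to folds only, and none of these fits used it. For genotype the 0 genes became 2 with edgeR, where 103 of all genes passed against 1 in limma, 2 with DESeq2 and 4 in limma at a minimum of 50. Between the M-CSF libraries the 10 higher and 0 lower genes became 11 and 2 with no minimum, and over all genes 795 became 1366 with no minimum and 471 with a pseudocount of 20. Over all genes the GM-CSF count of 145 was 316 with no minimum and 60 at a minimum of 50, and the 7787 passing for culture were 5009 and 5026 without a GM-CSF library. The cause of these changes was not tested. No 2-fold difference and no effect passing limma changed sign in these genes under the settings run. Smaller folds did, such as GM-CSF over M-CSF for Tgfbr3, Acvr1b and Smad2 in db/db marrow under scaling by library total. With the authors' scaling, the counting intervals of Tgfbr3 (1.03 to 1.54) and Acvr1b (1.01 to 1.35) had lain above 1 there. Genes with few reads in the GM-CSF libraries limit what can be seen there.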
